A study of Mus musculus with 6 samples.

Results

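The genes described here are 10 channel and pore genes of mouse chondrocytes: Piezo1 and Piezo2, Trpv4, the water channels Aqp1 and Aqp3, the volume-regulated anion channel subunit Lrrc8a, the gap junction and hemichannel genes Gja1 and Panx1, the calcium-activated lipid scramblase Ano6 and the L-type calcium channel pore Cacna1c. They were chosen by name, as channels with a known part in how cartilage cells sense load, volume and calcium. The choice was made with earlier results of these data known. All 10 were found among the 22032 gene rows of the deposited matrix. RNA-seq had been done on 3 samples of embryonic and 3 samples of adult mouse cartilage, which the study compared with human chondrocytes. Here the mouse stages are compared with each other. Each value is in TPM (transcripts scaled to a fixed sum per sample), which also corrects for transcript length. The embryonic cells came from mouse embryos at stage E16.5 (the labels read 16.5 wks) and were sorted as lineage-negative, ALP- and BMPR1B+ cells. The adult cells came from male B6 mice of 2 months and were sorted as CD31-, CD45-, Ter119-, ALP- and BMPR1B+ cells. ALP is alkaline phosphatase, carried by osteoblasts, and BMPR1B is a receptor for bone morphogenetic proteins. The labels name no treatment and no engineered allele for either stage. The strain and sex of the embryos, and the number of animals behind each sample, were not given in the sources used here, so that age, sex and strain cannot be told apart between the stages.

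Chondrocytes lie alone in a dense, charged matrix, and their membrane channels read the deformation and the changes in osmolarity that come with loading. Piezo channels open on membrane stretch, Trpv4 opens on stretch and hypotonic swelling, and both let in calcium, which also enters through voltage-gated channels and leaves the stores of the endoplasmic reticulum. Aquaporins let water follow an osmotic step, LRRC8 channels release chloride and organic osmolytes from swollen cells, and connexin hemichannels and pannexin channels release ATP, which acts on purinergic receptors of the same and neighbouring cells.

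Upstream sequences are shown for 4 of the 7 members that differed between the stages, 3 that fell and the 1 that rose, because they let a reader see what lies before the start of each. Ano6, whose call was near the threshold, and Cacna1c, which has 3 RefSeq starts, are left to the counts. RefSeq (GRCm38.p6) gave an entry for 9 of the 10 members, and Piezo2 is named only. Each line gives the 250 bases before the RefSeq start, 5′ to 3′ on the strand of the gene. Capitals mark a match, on either strand, to 1 of 4 short motifs: TGANTCA (the AP-1 site), GGAAA (the core bound by NFAT factors), ACAAT (a core bound by SOX factors) and GGGCGG (the GC box). The windows are chr6:55336049-55336298 (+) for Aqp1, chr9:15045479-15045728 (-) for Panx1, chr10:56377050-56377299 (+) for Gja1 and chr5:114658422-114658671 (-) for Trpv4.
Aqp1: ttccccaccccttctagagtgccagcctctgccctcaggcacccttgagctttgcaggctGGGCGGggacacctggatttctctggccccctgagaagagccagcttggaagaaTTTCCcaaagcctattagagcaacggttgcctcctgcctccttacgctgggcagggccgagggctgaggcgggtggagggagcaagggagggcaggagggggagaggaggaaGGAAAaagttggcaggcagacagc
Panx1: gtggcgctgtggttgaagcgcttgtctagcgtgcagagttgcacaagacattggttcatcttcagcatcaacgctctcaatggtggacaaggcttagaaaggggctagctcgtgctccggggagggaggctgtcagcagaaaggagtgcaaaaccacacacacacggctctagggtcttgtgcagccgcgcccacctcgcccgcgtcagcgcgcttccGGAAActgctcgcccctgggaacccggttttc
Gja1: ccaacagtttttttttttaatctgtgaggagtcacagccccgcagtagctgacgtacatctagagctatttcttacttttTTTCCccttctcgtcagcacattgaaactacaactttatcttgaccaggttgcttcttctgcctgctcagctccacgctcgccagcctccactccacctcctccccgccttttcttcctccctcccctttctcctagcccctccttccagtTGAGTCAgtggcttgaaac
Trpv4: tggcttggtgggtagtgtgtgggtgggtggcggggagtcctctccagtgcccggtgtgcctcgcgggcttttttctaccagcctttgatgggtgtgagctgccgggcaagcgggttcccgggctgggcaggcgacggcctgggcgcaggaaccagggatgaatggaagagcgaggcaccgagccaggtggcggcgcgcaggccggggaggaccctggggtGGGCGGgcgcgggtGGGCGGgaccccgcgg
The Aqp1 window held 2 GGAAA matches and 1 GGGCGG match, that of Panx1 held 1 GGAAA match, and that of Gja1 held 1 TGANTCA and 1 GGAAA match. The Trpv4 window, of the member that was higher in adult cells, held 2 GGGCGG matches and no match to the other motifs. Among the 9 members, GGAAA was found for 6, GGGCGG for 7, TGANTCA for 1 and ACAAT for 1, and no matches to different motifs overlapped. These are counts of members over 11 windows, since Cacna1c has 3 and so more chances of a match, and 1 of its windows holds the only ACAAT match. The shares per single window, over all 32851 RefSeq windows of this length, were 55.6% for GGAAA, 32.7% for GGGCGG, 6.75% for TGANTCA and 27.7% for ACAAT. A match gives letters only and is not evidence of binding.

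The chondrocyte label was checked against 10 markers of the cell type. The 10 chondrocyte markers (Col2a1, Acan, Sox9 and others) summed to 22120 to 23825 TPM in embryonic and 14211 to 17534 TPM in adult samples. All 10 passed the filter on low values, which does not ask for a level in each stage. Much of the sum was Col2a1, at means of 14689 and 4706 TPM. Single markers moved both ways. Col9a1 had means of 1931 TPM in embryonic and 44.8 TPM in adult samples, Matn3 of 201 and 2.20 TPM, and Chad of 124 and 5342 TPM. The 20 genes with the highest mean took 8.35% to 8.72% of the TPM in embryonic samples and 13.1% to 15.3% in adult samples. TPM keeps no read depth, so the error of a value is taken from the spread between 3 samples.

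Of the 10 members, 7 differed between the stages at a Benjamini-Hochberg adjusted p under 0.05 in limma, with 1 higher in adult cells (Trpv4) and 6 lower (Piezo2, Aqp1, Gja1, Panx1, Ano6 and Cacna1c). Among the 13125 genes tested the share called was 45.3%, with 23.9% higher and 21.4% lower in adult cells. The median log2 fold change of the members, adult minus embryonic, was -0.88, beside 0.16 over all genes tested. Since the members were chosen with earlier results of these data known, their share and median are a description only. At an adjusted p under 0.01, 6 members were called (all of these but Ano6), beside 28.3% of the genes tested. All 10 members passed the filter on low values (a mean over the samples of 1 TPM or more), Aqp3 at the lowest level. The values of the stages did not overlap for 8 members, 2 with the adult samples above (Piezo1 and Trpv4) and 6 with the adult samples below. Over all genes tested 56.5% did not overlap, 30.7% with the adult samples above and 25.9% below.

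**Figure D1:**
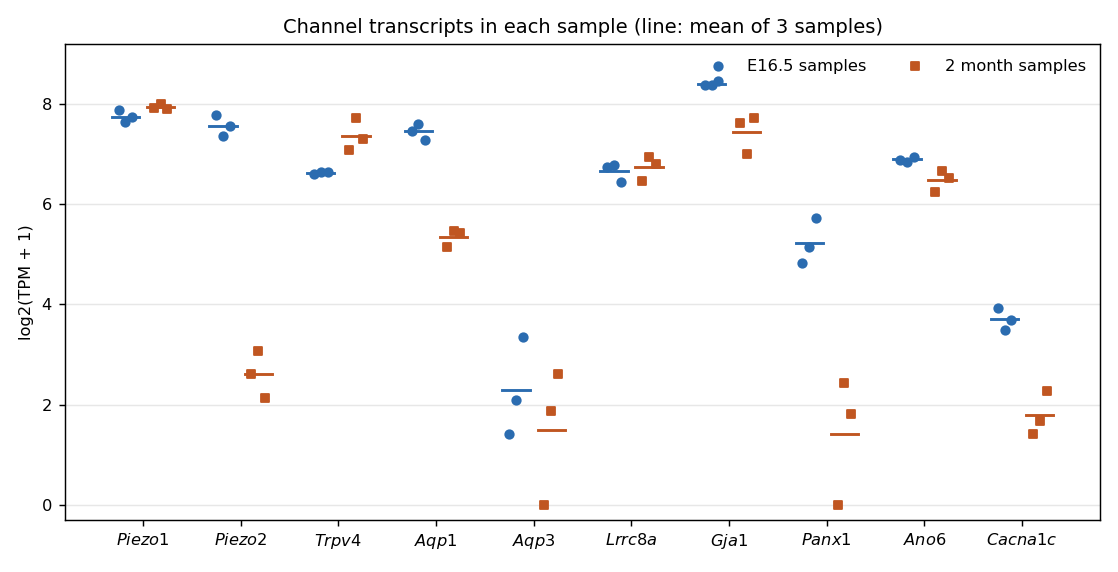
Level of each of the 10 channel genes as log2(TPM + 1), 1 point per sample, with embryonic samples as blue circles, adult samples as orange squares and a line at the mean of the 3 samples of a stage. The points of Piezo1 sit together near the top (198 to 254 TPM), while those of Piezo2 are high in embryonic samples (163 to 220 TPM) and low in adult samples (3.41 to 7.35 TPM).

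**Figure D2:**
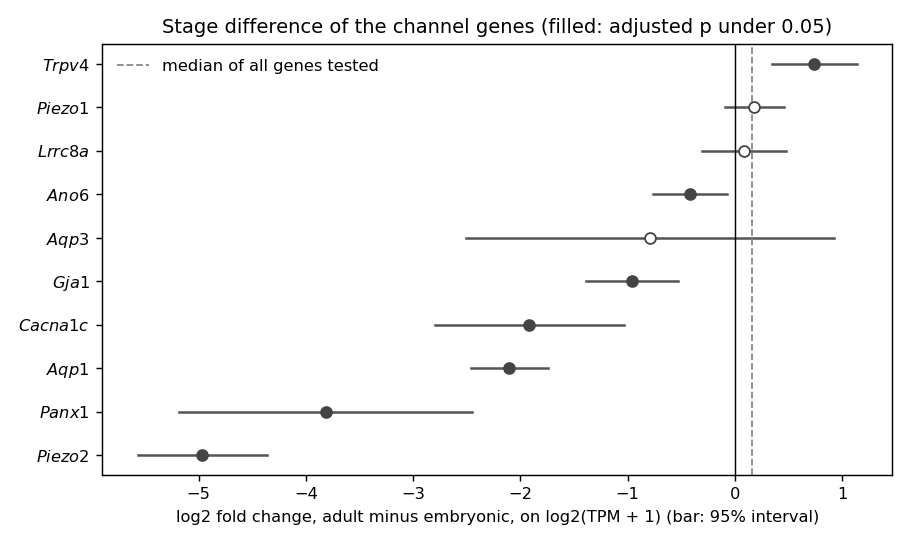
Log2 fold change of each channel gene, adult minus embryonic, on the log2(TPM + 1) scale, with its 95% confidence interval from limma; filled points have an adjusted p under 0.05 and the dashed line is the median of all genes tested, 0.16. The estimates run from -4.97 for Piezo2 to 0.74 for Trpv4, and the intervals of Piezo1, Lrrc8a and Aqp3 cross 0.

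Of the Piezo pair, Piezo2 was lower in adult cells and Piezo1 did not pass the test. Piezo1 encodes the Piezo channel found in many tissues and lies on chromosome 8 from 122481698 to 122551329 on the minus strand (GRCm38). Its level was 235, 198 and 212 TPM in embryonic samples 1 to 3 and 240, 254 and 237 TPM in adult samples 1 to 3. The adult values all lay above the embryonic ones, the nearest pair being 237 and 235 TPM. The log2 fold change was 0.18 ± 0.12 (SE, n = 3 per stage), with a 95% interval of -0.09 to 0.45 and an adjusted p of 0.244 in limma, so that a difference was not shown. Relative to the median of all genes tested it was 0.03. Of its exonic bases 24.6% lie over exons of Ctu2, a gene on the opposite strand that encodes a tRNA-modifying enzyme subunit. Whether reads were counted by strand is not given in the sources used here, so reads of the 2 genes may not have been told apart. Ctu2 was listed at 43.2, 42.0 and 36.5 TPM in embryonic and 25.6, 20.1 and 83.8 TPM in adult samples.

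Piezo2, the Piezo channel known best from touch and proprioceptive neurons, lies on chromosome 18 from 63010213 to 63387183 on the minus strand, and no other gene shares its exons. Its level was 220, 163 and 188 TPM in embryonic samples and 5.14, 7.35 and 3.41 TPM in adult samples. Embryonic chondrocyte samples thus listed Piezo2 near the level of Piezo1, and every adult sample listed it at a small part of that. Piezo2 fell by 4.97 ± 0.26 on the log2 scale (SE, limma adjusted p = 2.89e-06), a 31.2-fold difference on the TPM + 1 scale. Of the genes tested, 73 (0.556%) fell further than Piezo2. The Piezo2 share of the summed Piezo TPM was 46.9% ± 1.58 (SD, n = 3) in embryonic and 2.11% ± 0.697 in adult samples, and the sum itself was 406 ± 47.5 TPM in embryonic and 249 ± 11.1 TPM in adult samples. The neuron and Schwann cell markers, as a list that includes sources of Piezo2 other than chondrocytes, summed to 18.8 to 32.2 TPM in embryonic and 6.01 to 12.5 TPM in adult samples, with Elavl4 at 0 in all 6 samples. Of 4 tested, 1 was lower in adult samples in limma (Ngfr, adjusted p = 0.00148) and none was higher. Ngfr was much of the embryonic sum, at 22.9, 25.5 and 11.7 TPM. In adult samples Ngfr was at 3.49, 0.635 and 1.10 TPM. Tubb3, Prph and Sox10 did not pass the test, and Tubb3 moved the other way, with means of 0.385 and 3.25 TPM. The part of neurons and Schwann cells in the Piezo2 result was not tested.

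Trpv4, an osmotically and mechanically gated calcium channel whose mutations cause skeletal dysplasias, lies on chromosome 5 from 114622152 to 114658421 on the minus strand. Its level was 95.9, 98.4 and 99.5 TPM in embryonic samples and 135, 211 and 156 TPM in adult samples. Every adult sample was above every embryonic one, with a wider spread among the adult samples. Trpv4 rose by 0.74 ± 0.17 (SE) on the log2 scale (limma adjusted p = 0.00806).

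Other mechanosensitive and transient receptor potential (TRP) channel genes moved both ways. Of 40 listed, 18 were tested, 5 were higher and 3 lower in adult cells, and the median log2 fold change was 0.02. The share called, 44.4%, was near the 45.3% of all genes tested. Trpm6, a magnesium-permeable channel fused to a kinase, rose by 2.43 (SE 0.31, adjusted p = 0.000373), from 3.69, 4.14 and 3.74 TPM to 29.9, 27.9 and 19.1 TPM. Tmem63a, of a family of stretch-activated channels, rose by 1.67 (SE 0.22, adjusted p = 0.000399), from 64.5, 66.0 and 56.8 TPM to 152, 282 and 190 TPM. Pkd2, a TRP channel of the primary cilium, rose by 0.96 (SE 0.17, adjusted p = 0.00242). Among the falls, Mdfi, whose protein binds Piezo channels, was at -1.01 (SE 0.16, adjusted p = 0.000979). Mdfi was listed at 81.6, 94.6 and 81.9 TPM in embryonic and 42.3, 45.4 and 38.6 TPM in adult samples.

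**Figure D3:**
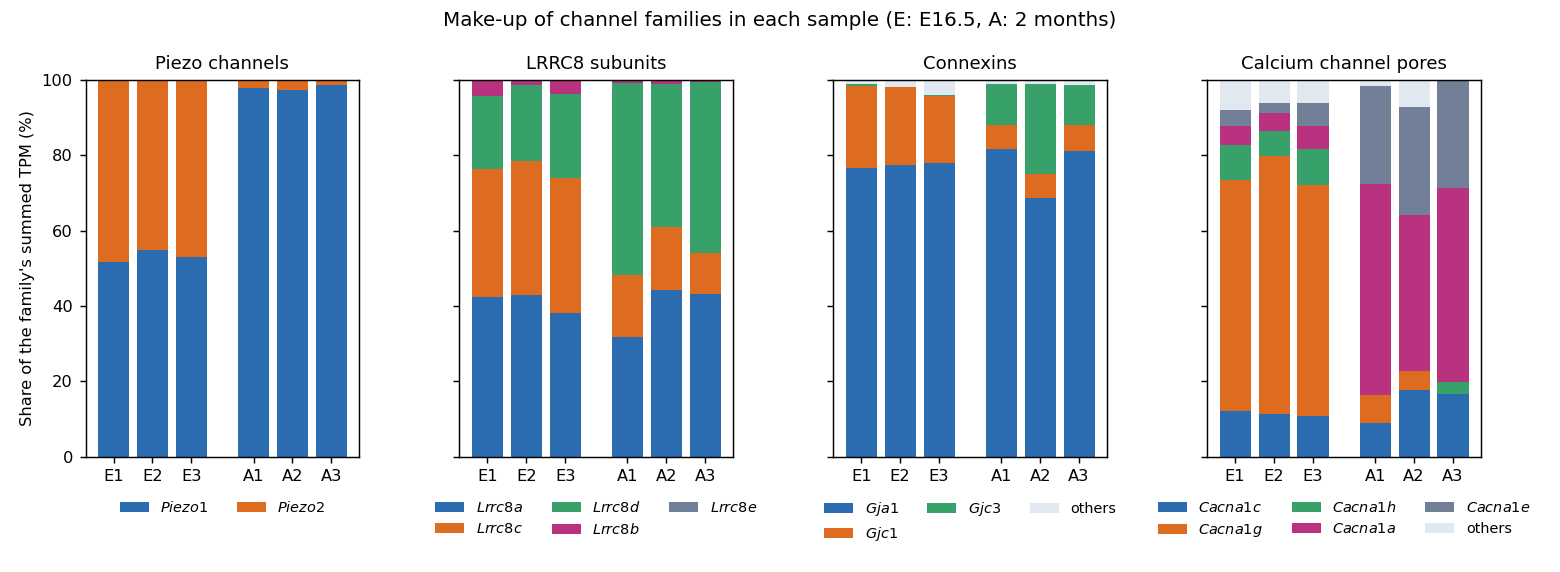
Share of each gene in the summed TPM of its channel family, in percent, as 1 stacked bar per sample (E1 to E3 embryonic, A1 to A3 adult), for the Piezo channels, LRRC8 subunits, connexins and pore-forming voltage-gated calcium channel subunits. The mean share of Piezo1 is 53.1% in embryonic and 97.9% in adult samples, while Gja1 holds 77.2% and 77.1% of the connexin total.

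The main water channel of these cells fell. Aqp1, a water channel also abundant in red cells and capillary endothelium, lies on chromosome 6 from 55336432 to 55348555 on the plus strand. Its level was 176, 193 and 155 TPM in embryonic samples and 34.5, 43.2 and 42.3 TPM in adult samples. The lowest embryonic value was thus well above the highest adult one. Aqp1 fell by 2.10 ± 0.16 (SE) on the log2 scale (limma adjusted p = 2.1e-05), and 922 genes (7.02%) fell further. The 8 erythroid markers summed to 0.31 to 133 TPM in embryonic and 3.13 to 36.4 TPM in adult samples, and the 8 endothelial markers to 10.9 to 40.8 TPM and 5.38 to 15.0 TPM. Only 4 endothelial markers were tested, and they did not move together. Tek was lower in adult samples (limma adjusted p = 0.000976), with mean levels of 12.5 and 0.60 TPM. Pecam1 lay above in all adult samples, with means of 1.51 and 4.17 TPM, and did not pass the test (adjusted p = 0.123). The part of erythroid and endothelial cells in the Aqp1 result was not tested.

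Aqp3, which passes glycerol as well as water, lies on chromosome 4 from 41092722 to 41098183 on the minus strand and was the lowest member in embryonic cells. Its level was 1.68, 3.28 and 9.14 TPM in embryonic samples and 0, 2.68 and 5.07 TPM in adult samples, so that the stages overlapped. The log2 fold change was -0.79 ± 0.76 (SE) with an interval of -2.51 to 0.93 (limma adjusted p = 0.419), which spans a fall and a rise. A listed 0 may be a failed estimate and does not show that a transcript was absent. Of the 10 other aquaporin genes listed, Aqp5, a water channel of secretory epithelia, was the only one tested. It was listed at 0, 0 and 0.41 TPM in embryonic and at 5.63, 6.18 and 6.83 TPM in adult samples and rose by 2.68 (SE 0.43, adjusted p = 0.0013). Aqp1 made up 96.3% ± 3.07 (SD) of the aquaporin TPM in embryonic and 77.7% ± 4.72 in adult samples, and Aqp5 0.081% ± 0.139 and 12.1% ± 1.28.

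Among the LRRC8 subunits, Lrrc8c was lower and Lrrc8d higher in adult cells, and Lrrc8a did not pass the test. Lrrc8a, without which the volume-regulated anion channel does not form, lies on chromosome 2 from 30237715 to 30263790 on the plus strand. Its level was 106, 109 and 85.6 TPM in embryonic samples and 87.4, 123 and 111 TPM in adult samples, and the stages overlapped. The log2 fold change was 0.09 ± 0.17 (SE) with an interval of -0.31 to 0.48 (limma adjusted p = 0.704), and its sign turned to -0.06 under median-of-ratios scaling. Of its exonic bases 66.2% are shared on the same strand with Gm28035, a protein-coding gene model. No row of the deposited matrix was found under the symbol Gm28035. The level of Lrrc8a is uncertain to the extent that reads of both were not told apart.

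The other subunits help to set what the channel passes. Lrrc8c fell by 1.10 (SE 0.22, limma adjusted p = 0.0036), from 84.6, 89.8 and 80.0 TPM in embryonic to 45.9, 46.5 and 28.0 TPM in adult samples. Lrrc8d, the subunit that favours organic osmolytes such as taurine, rose by 1.25 (SE 0.15, adjusted p = 0.00031), from 48.5, 51.3 and 49.5 TPM to 140, 105 and 117 TPM. Adult cells thus listed Lrrc8d above Lrrc8c in all 3 samples and embryonic cells the reverse in all 3. Lrrc8b was at 10.6, 3.47 and 7.83 TPM and 2.63, 2.63 and 1.79 TPM, a log2 fold change of -1.21 (SE 0.47) that missed the threshold (adjusted p = 0.0613). Lrrc8e stayed under 1 TPM in every sample and was not tested. As shares of the LRRC8 total, which was 243 ± 16.4 TPM in embryonic and 270 ± 11.3 TPM in adult samples, Lrrc8a held 41.2% ± 2.59 (SD) and 39.7% ± 6.95, Lrrc8c 35.0% ± 1.00 and 14.7% ± 3.36, and Lrrc8d 20.6% ± 1.38 and 44.7% ± 6.42. No test was run on these shares.

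Of the 25 other volume regulation genes listed, 24 were tested, 7 were higher and 4 lower, and the median was 0.23. This share called, 45.8%, was near the 45.3% of all genes tested. The rises were led by carriers and enzymes of organic osmolytes. Slc6a12, the betaine transporter, was listed at 5.16, 5.13 and 0.48 TPM in embryonic and 72.6, 341 and 277 TPM in adult samples and rose by 5.64 (SE 0.68, adjusted p = 0.000282). Akr1b3, the aldose reductase that makes sorbitol, was at 30.9, 25.1 and 13.4 TPM and 142, 562 and 617 TPM and rose by 4.01 (SE 0.53, adjusted p = 0.000442). Near-identical copies elsewhere cover 97.5% of the longest coding transcript of Akr1b3, so this value is uncertain. Nfat5, the transcription factor that answers hypertonic stress, was at 229, 169 and 180 TPM and 139, 180 and 159 TPM, with a log2 fold change of -0.27 (SE 0.16, adjusted p = 0.205). The falls were led by Kcnmb4, a subunit of the large-conductance potassium channel, at -4.06 (SE 0.55, adjusted p = 0.00051), and Slc12a2, the sodium-potassium-chloride cotransporter that restores the volume of shrunken cells, at -1.32 (SE 0.27, adjusted p = 0.00437). Antisense genes lie over 31.5% of the exonic bases of Kcnmb4.

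Both members that open a path between the cytoplasm and the outside or the next cell were lower in adult cells. Gja1 encodes connexin43, the main gap junction protein of skeletal cells, and lies on chromosome 10 from 56377330 to 56402513 on the plus strand. Its level was 331, 333 and 349 TPM in embryonic samples and 197, 126 and 210 TPM in adult samples. It was the highest member in every embryonic sample, and all adult samples were below all embryonic ones. Gja1 fell by 0.96 ± 0.19 (SE) on the log2 scale (limma adjusted p = 0.00356). Panx1, the ATP-releasing channel of the pannexin family, lies on chromosome 9 from 15002128 to 15045478 on the minus strand. Its level was 27.4, 34.5 and 51.7 TPM in embryonic samples and 0, 4.42 and 2.50 TPM in adult samples. Panx1 fell by 3.82 ± 0.60 (SE) on the log2 scale (limma adjusted p = 0.00113), and 200 genes (1.52%) fell further. The 0 in adult sample 1 may be a failed estimate. Without that sample the fall was 3.11 (adjusted p = 0.00119).

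The paralogs of both genes differed as well. Panx3, a pannexin known from hypertrophic chondrocytes and osteoblasts, fell by 2.46 (SE 0.48, adjusted p = 0.0036), from 6.07, 3.37 and 7.38 TPM to 0, 0.57 and 0 TPM. Panx2 had a mean under 1 TPM and was not tested. All 3 pannexins were listed at 0 in adult sample 1. Among the connexins, Gjc1 (connexin45) fell by 2.49 (SE 0.20, adjusted p = 3.11e-05), from 94.2, 88.9 and 80.2 TPM to 15.6, 11.9 and 17.3 TPM. Gjc3, a connexin known from Schwann cells and glia, rose by 4.03 (SE 0.49, adjusted p = 0.000297), from 2.15, 0 and 1.57 TPM to 26.1, 44.1 and 27.7 TPM. In the connexin total, which was 437 ± 9.98 TPM in embryonic and 228 ± 38.5 TPM in adult samples, Gja1 held 77.2% ± 0.644 (SD) and 77.1% ± 7.40, while Gjc1 held 20.1% ± 2.01 and 6.53% ± 0.15 and Gjc3 0.282% ± 0.255 and 15.1% ± 7.57. Of the 31 other connexin, pannexin and extracellular ATP genes listed, 16 were tested, with 6 higher, 6 lower and a median of -0.66. That is 75.0% called, beside 45.3% of all genes tested. P2rx7, the ATP-gated channel that opens a large pore, was at 0.23, 0.34 and 0.87 TPM in embryonic and 24.2, 26.0 and 24.4 TPM in adult samples and rose by 4.15 (SE 0.37, adjusted p = 5.29e-05). Leukocytes also carry P2rx7, and the 8 leukocyte markers summed to 6.06 to 14.7 TPM in embryonic and 20.4 to 91.0 TPM in adult samples. Of 4 tested, 2 were higher in adult samples in limma and none was lower. The 2 were Cd68, with means of 7.57 and 26.0 TPM, and Itgam, with means of 0.67 and 10.5 TPM. Lyz2 and Cd79a did not pass the test, and Cd3e was at 0 throughout. The part of leukocytes in the P2rx7 result was not tested.

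Ano6, which moves phosphatidylserine to the outer leaflet when calcium rises and also passes ions, lies on chromosome 15 from 95790843 to 95974751 on the plus strand. Its level was 118, 115 and 123 TPM in embryonic samples and 74.6, 101 and 91.4 TPM in adult samples. The stages did not overlap, and the difference was small. Ano6 fell by 0.42 ± 0.15 (SE) on the log2 scale, at a limma adjusted p of 0.0493 that lies just under the threshold. The call was lost when any of the 3 embryonic samples, adult sample 1 or adult sample 3 was left out (adjusted p 0.066 to 0.132) and kept without adult sample 2 (adjusted p = 0.0329). It was also lost with a replicate block (adjusted p = 0.0863).

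Ano6 made up 55.4% ± 4.15 (SD) of the anoctamin TPM in embryonic and 70.8% ± 6.19 in adult samples, and Ano1, a calcium-activated chloride channel, 36.1% ± 4.37 and 10.4% ± 7.49. Ano1 fell by 2.69 (SE 0.45, adjusted p = 0.00151), from 84.4, 84.7 and 63.3 TPM to 9.57, 5.41 and 24.9 TPM. Of the 19 other anoctamin and lipid scramblase genes listed, 11 were tested, with 3 higher, 2 lower and a median of 0.25. This share called, 45.5%, was near the 45.3% of all genes tested. Plscr4, a phospholipid scramblase, rose by 2.23 (SE 0.54, adjusted p = 0.00928). Xkr8, the scramblase that caspases switch on in dying cells, rose by 2.09 (SE 0.56, adjusted p = 0.0157), a call lost without adult sample 1 (adjusted p = 0.0609) or adult sample 2 (adjusted p = 0.0547). Plscr1 was lower by the fit, at -2.65 (SE 0.60, adjusted p = 0.00681), and 42.6% of its longest coding transcript has a near-identical copy in Gm5530, which leaves its level uncertain.

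Voltage-gated calcium channel genes were lower in adult cells or did not pass the test. Cacna1c, the pore of the L-type channel of heart and smooth muscle, lies on chromosome 6 from 118587240 to 119196418 on the minus strand. Its level was 14.2, 10.3 and 11.9 TPM in embryonic samples and 1.68, 2.17 and 3.85 TPM in adult samples. Cacna1c fell by 1.92 ± 0.39 (SE) on the log2 scale (limma adjusted p = 0.0041), with no overlap of the stages. The 10 smooth and skeletal muscle markers, of which 8 were tested and 4 fell, summed to 96.9 to 113 TPM in embryonic and 7.87 to 24.5 TPM in adult samples. They moved in the same direction as Cacna1c, and their part in the result was not tested. In bulk samples, fewer cells of a type and less RNA per cell cannot be told apart.

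Of the 21 other genes of this list, 14 were tested, none rose and 9 fell in limma, with a median of -1.43. That is 64.3% called, beside 45.3% of all genes tested, where 21.4% were lower in adult cells. With no adjustment, 0 were higher and 10 lower at a p under 0.05. The falls were led by Cacna1g and Cacna1h, pores of T-type channels, which open at small depolarizations. Cacna1g was at 71.9, 62.5 and 67.4 TPM in embryonic and 1.41, 0.64 and 0 TPM in adult samples and fell by 5.43 (SE 0.38, adjusted p = 1.53e-05). Cacna1h was at 10.9, 6.14 and 10.7 TPM and 0, 0 and 0.72 TPM and fell by 3.06 (SE 0.47, adjusted p = 0.000958). The other T-type pore, Cacna1i, was listed at 4.78, 2.36 and 0 TPM and at 0 in all 3 adult samples and did not pass the test (adjusted p = 0.119). The summed pore TPM was 106 ± 13.3 in embryonic and 18.1 ± 5.44 in adult samples. Cacna1c held 11.4% ± 0.652 (SD) and 14.4% ± 4.75 of it, so its share overlapped between the stages while its level did not. Cacna1g held 63.7% ± 4.12 and 4.24% ± 3.85. Named after its values were seen, Cacna1a, the pore of the P/Q-type channel, held 5.22% ± 0.715 of the embryonic and 49.6% ± 7.51 of the adult total. Its level, at 5.72, 4.32 and 6.65 TPM in embryonic and 10.5, 5.08 and 11.9 TPM in adult samples, overlapped between the stages and did not pass the test (log2 fold change 0.57, SE 0.41, adjusted p = 0.276), and the total it is a share of was smaller in adult samples.

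Genes of the calcium stores, pumps and calcineurin, which act on the calcium these channels admit, were split. Of 38 listed, 32 were tested, with 10 higher, 7 lower and a median of 0.09, and the split was 8 higher and 9 lower under median-of-ratios scaling. The full fit thus called 53.1%, beside 45.3% of all genes tested. Itpr3, a calcium release channel of the endoplasmic reticulum, rose by 2.50 (SE 0.14, limma adjusted p = 3.31e-06), from 44.0, 42.6 and 45.2 TPM to 260, 276 and 226 TPM. Slc8b1, the mitochondrial sodium-calcium exchanger, rose by 3.84 (SE 0.30, adjusted p = 2.48e-05), from 5.54, 4.47 and 6.82 TPM to 62.0, 120 and 107 TPM. Nfatc2, a transcription factor that calcineurin sends to the nucleus, fell by 4.23 (SE 0.27, adjusted p = 9.83e-06), from 152, 134 and 151 TPM to 10.2, 6.81 and 4.36 TPM. Slc8a1, the sodium-calcium exchanger of the plasma membrane, fell by 3.01 (SE 0.56, adjusted p = 0.0028). Over all 184 related genes listed, 116 were tested, 32 were higher and 31 lower, a share called of 54.3% beside 45.3% of all genes tested.

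**Figure D4:**
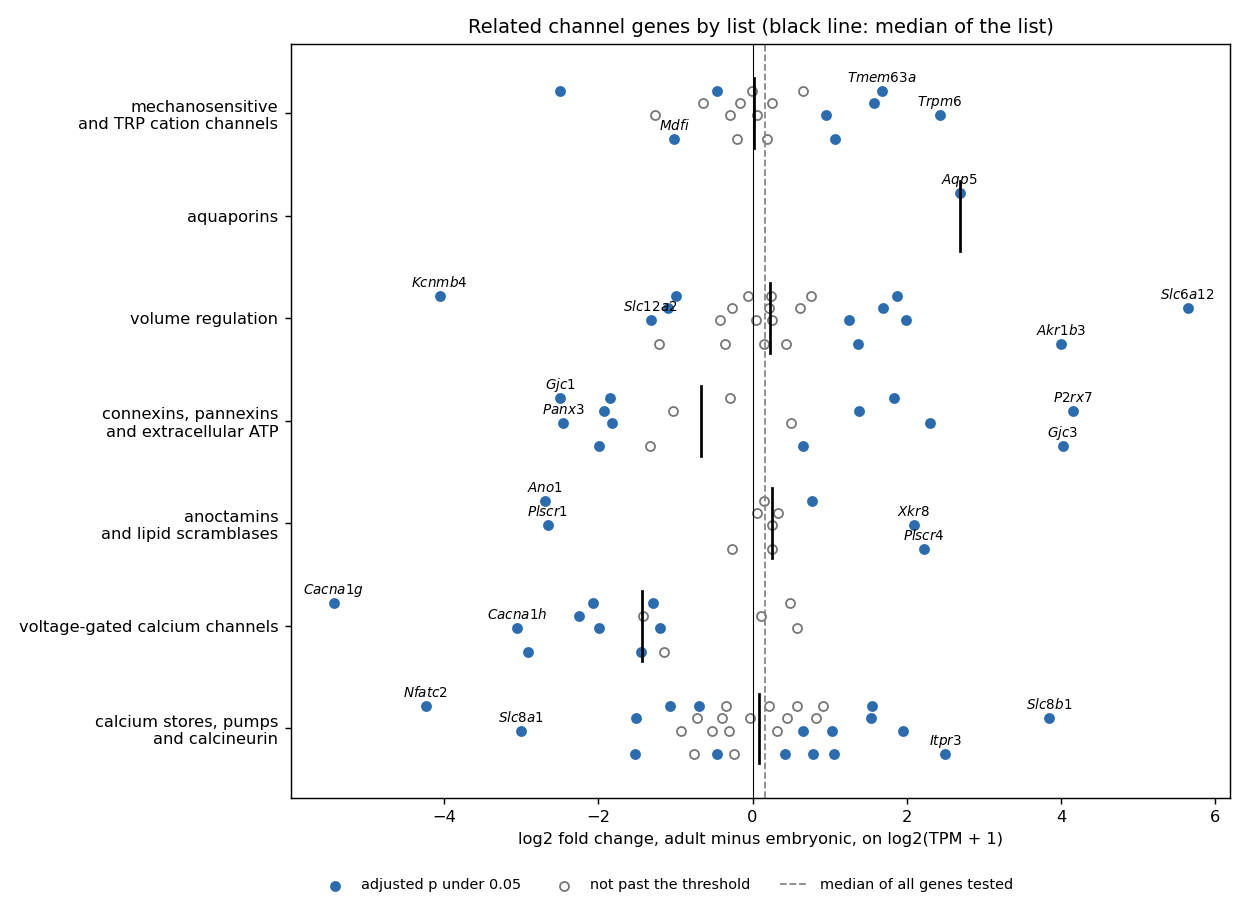
Log2 fold change, adult minus embryonic on log2(TPM + 1), of every tested gene in the 7 related lists; filled points have a limma adjusted p under 0.05, black bars are list medians and the dashed line is the median of all genes tested, 0.16. The voltage-gated calcium channel list has its median at -1.43 and no filled point above 0, while the calcium store list has filled points on both sides.

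Within a stage, levels may be ordered because TPM is scaled for length. In embryonic samples the order by mean TPM was Gja1 (338), Piezo1 (215), Piezo2 (191), Aqp1 (175), Ano6 (118), Lrrc8a (100.3), Trpv4 (97.9), Panx1 (37.9), Cacna1c (12.1) and Aqp3 (4.70). Piezo1 and Piezo2, Piezo2 and Aqp1, and Lrrc8a and Trpv4 overlapped in their ranges, and the other neighbours did not. In adult samples Piezo1 was first with a mean of 244 TPM, above Gja1 (178) and Trpv4 (167), which overlapped. Lrrc8a (107) and Ano6 (88.9), which also overlapped, and Aqp1 (40.0) came next. Piezo2, Aqp3, Cacna1c and Panx1 each stayed under 8 TPM in every adult sample, and neighbours among these 4 overlapped.

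The related genes most like each member were taken by Pearson's r of log2(TPM + 1) over the 6 samples, among the 116 tested. These values are a description. The samples are 3 of each stage, so for members that differed between the stages r mostly holds the stage difference. For Piezo1, Aqp3 and Lrrc8a, which did not pass the test, r also holds the spread within the stages. Within a library all genes share its scaling. For Piezo2 they were Cacna1g and Nfatc1 (r = 0.993 for both), for Aqp1 Nfatc1 (0.992) and Mdfi (0.984), for Panx1 Nfatc1 (0.955) and Panx3 (0.943), and for Cacna1c Cacna1h (0.991) and P2ry1 (0.990). For Trpv4 they were Pkd2 (0.982) and Tmem63a (0.981), and for Gja1 Calm2 (0.985) and Cacng7 (0.977). For Ano6 they were Panx3 and Adora2a (0.905 for both), and for Piezo1 Wnk1 (0.944) and Pkd1 (0.923). For Aqp3 they were Trpc1 (0.918) and Slc38a2 (0.714), and for Lrrc8a Enpp1 (0.685) and Scnn1a (0.675). Scnn1a was low, at mean levels of 1.34 TPM in embryonic and 1.44 TPM in adult samples.

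Some markers of other cell types moved with the stage beside the members. The 8 tendon and fibroblast markers summed to 815 to 985 TPM in embryonic and 270 to 360 TPM in adult samples, with 5 lower and none higher in limma (0 higher and 5 lower at an unadjusted p under 0.05). The 6 skin markers summed to 34.7 to 48.2 TPM and 0.41 to 7.19 TPM, with Krt5 and Krt14 at 0 in all samples. Nearly all of that sum in embryonic samples was 1 gene, the epithelial adhesion gene Epcam, at 45.5, 48.0 and 33.3 TPM in embryonic and 0, 4.75 and 0 TPM in adult samples. The 7 osteoblast markers summed to 42.5 to 54.1 TPM and 37.3 to 162 TPM, and the 6 hypertrophic chondrocyte markers, which include Panx3, summed to 615 to 870 TPM and 3562 to 5816 TPM. Both lists were split. Among the osteoblast markers 2 were higher (Bglap and Bglap2), 1 was lower (Dmp1) and 4 did not pass the test. Of 5 hypertrophic markers tested, 3 were higher (Col10a1, Ibsp and Spp1), 1 was lower (Panx3) and Mef2c did not pass. Much of the hypertrophic sum was Spp1, at means of 610 and 3417 TPM. Col10a1 had means of 32.8 TPM in embryonic and 953 TPM in adult samples, and Ibsp of 11.6 and 287 TPM. Of the chondrocyte markers 3 were higher (Sox9, Comp and Chad) and 5 lower (Col2a1, Col9a1, Col11a1, Matn3 and Hapln1) in adult cells. The part of these cell types, and of maturation within the chondrocytes, in the falls of Piezo2, Aqp1, Gja1, Panx1 and Cacna1c was not tested.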

How the data were processed

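RNA from 3 embryonic and 3 adult samples was sequenced. For cDNA the study's methods name a Nugen Ovation V2 kit, and the labels a Kapa mRNA-Seq kit. The authors mapped reads to GRCm38 with RefSeq annotation, ran RSEM for the levels, and the deposited matrix holds log2(TPM + 1) values. The RSEM version and strand setting were not given in the sources used here. No counts were used, so EBSeq, the study's test, was not applied. Of 22032 Ensembl identifiers, 21902 had a symbol in GENCODE M21.

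Genes whose mean reached 1 TPM were tested on the deposited log2 values, with the pseudocount of 1 they hold, by limma 3.58.1 in R 4.3.3 (lmFit, eBayes with trend), with stage as the only term, a Benjamini-Hochberg adjustment over all 13125 genes and a threshold of 0.05. The fit was tested on simulated data. Fold changes are on the log2(TPM + 1) scale and understate changes of low genes. Where nothing tells separate animals apart, p-values measure the spread between these samples. Near-identical copies (at least 95% identity over 50 bases) came from BLAST 2.17.0 on GENCODE transcripts.

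The members, the 7 related lists and the marker lists were chosen with earlier results of these data known. Named genes were the members, the 2 largest rises and falls per list past the threshold, the 2 related genes most like each member, the other LRRC8 subunits and pannexins, and markers. A result that the rule names is not reported here. Pkd2 is named as 1 of those most like Trpv4. Nfat5, Cacna1a and Cacna1i were named after their values were seen. Alternatives were another pseudocount, filter, scaling, variance model or threshold, a replicate block, and leaving out each sample.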

Additional observations from a re-analysis of the deposited data

How the results depend on the processing

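With 3 samples per stage, and no read depth in TPM, precision rests on the spread between samples. Every member other than Lrrc8a kept its direction, and every member other than Ano6 kept its side of the threshold, in the alternatives run. Lrrc8a was -0.058 under median-of-ratios scaling, and from -0.0225 to 0.224 with a sample left out (-0.0225 without embryonic sample 3 and -0.0193 without adult sample 2). Scnn1a, -0.20 in the full fit, ranged from -0.88 to 0.22 with a sample left out, and was above 0 without embryonic sample 2 (0.15), adult sample 1 (0.22) or adult sample 3 (0.06). Ano6 lost its call with no filter (-0.42, adjusted p = 0.0542), without the 20 highest genes (-0.32, 0.111), with quantile normalization (-0.36, 0.0804), without the variance trend (-0.42, 0.12), at a threshold of 0.01 (-0.42, 0.0493) and with a sample left out (-0.51 to -0.30). Samples of the same number did not deviate together (r from -0.0223 to -0.00884), and no sample correlated best with its own number. Deviations from a mean of 3 samples cancel within a stage, so this check cannot tell whether samples of the same number were prepared or run together. With a replicate block 6 members, 58 related and 5430 of all genes were called, and Ano6 stayed at -0.42 (adjusted p = 0.0863). Members called numbered 6 or 7 and related genes 48 to 66 over the alternatives. At a threshold of 0.01, 3718 of all genes were called, beside 5949. The connexin, pannexin and ATP list gave 7 calls, beside 12, both at 0.01 and with a mean of at least 5 TPM, where 9 of its genes were tested and no aquaporin of the related list remained. Lrrc8b passed the threshold in 4 alternatives. Of all genes, 3140 were higher and 2809 lower; under median-of-ratios scaling 2612 were higher and 3232 lower, and the median shifted by -0.13.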
